A study of Homo sapiens with 8 samples.

Results

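The genes described here are 40 genes of glucose breakdown and of the transcriptional response to low oxygen, chosen by symbol, with no threshold on a measured value, out of 19483 gene symbols represented on the array. The list, made with earlier results of these data known, held 24 genes of glycolysis and lactate handling and 16 genes of the hypoxia response. A probe was matched to 39 of the 40 genes. No probe was matched to ALDOA, an aldolase, through the RefSeq gene table, so its expression is not reported. The probe of each of the 39 genes was well above background on all 8 arrays, and all 39 were tested. Where a gene had several probes, the brightest at 24 h was used.

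Glycolysis converts glucose to pyruvate in the cytosol. Glucose enters through SLC2A transporters, is phosphorylated by hexokinases, is committed by phosphofructokinase and is split into trioses that are oxidised to pyruvate, which lactate dehydrogenase reduces to lactate for export by SLC16A transporters. When oxygen is low, the hypoxia-inducible factors HIF1 and HIF2 escape degradation by the VHL ubiquitin ligase and bind the core letters ACGTG or GCGTG of hypoxia response elements, which raises transcription of many glycolytic genes and of genes for pH control, mitophagy, collagen modification and secreted factors. In glioblastoma these genes are known for their high expression around necrotic regions, and many are transcribed in cultured glioma lines at ambient oxygen as well.

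Total RNA was measured on 1-colour arrays in U87 cells, an established human glioblastoma line, that had been reverse transfected with siRNA. The cells received siRNA against RND3 (siRND3), a small GTP-binding protein, or a non-silencing siRNA (siControl), so all samples carried a transfection and none was untreated. At 24 h there were 3 siControl and 3 siRND3 arrays, and at 48 h there was 1 array of each kind. No label names a low-oxygen treatment. The study used a pair of siRNAs against RND3, and no source assigns them to arrays or tells separate transfections from repeats of one, so p-values measure only the spread between these samples, which may be technical.

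Values are log2 of the processed spot signal after quantile normalisation over the 8 arrays. RND3 itself had log2 values of 11.88, 11.91 and 11.90 on the siControl arrays and 10.13, 10.18 and 10.41 on the siRND3 arrays at 24 h, a fall to 31.7% of the siControl level. It stood at 11.48 in siControl and 9.83 in siRND3 cells at 48 h, which is 31.9%. The share of probes well above background ran from 68.3% to 70.7% per array, and the correlation across probes within a group at 24 h from 0.988 to 0.991. The arrays shared 1 slide, with siRND3 in one row and siControl in the other, so the row of the slide and the knockdown cannot be told apart. Of 6 markers used to check the line (VIM, NES, CD44, SPARC, TNC and CAV1), all were well above background on all 8 arrays, whereas CDH1, KRT5, ALB and RBFOX3, which mark epithelium, hepatocytes and neurons, were so on none.

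To show the DNA in front of the genes that moved most, RefSeq promoter windows (GRCh38.p14) were read for 36 of the 40 genes, and the 250 bases before each transcription start were searched on both strands for ACGTG and GCGTG, and for the E-box CACGTG, which contains ACGTG on both strands. Of all 35114 windows searched, 43.2% held ACGTG or GCGTG, 18.5% held ACGTG and 6.35% held CACGTG. The 36 genes had 65 windows, some of them overlapping, of which 63.1% held ACGTG or GCGTG and 40% held ACGTG. By gene, 31 of the 36, which had up to 7 windows each, held a core in at least 1. The same share per gene was not counted over all genes. A core was found in 9 of the 10 genes with a window that fell at 24 h, in 14 of the 15 that fell at 48 h, and in 17 of the other 21, ALDOA included. ACGTG alone was found in 8, 13 and 10 of these genes, and in 42.9%, 45.2% and 35.3% of their windows. Genes that moved and genes that did not thus both carried cores. Genes differed in their number of windows, and no difference between these sets was tested. A match of letters is a description and not a measured binding site.

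The windows below belong to genes whose knockdown effect grew between 24 h and 48 h (ANGPTL4, STC2, BNIP3, CA9 and SLC16A3), to DDIT4, and to PFKM, the member with the largest fall at 24 h. NDRG1, whose effect also grew, had no window to show. Capitals mark ACGTG and GCGTG on the printed strand and their reverse complements, CACGT and CACGC. Each run is the gene's own strand, 5′ to 3′, and ends at the base before the start. They are ANGPTL4 at chr19:8363905-8364154 on the plus strand, STC2 at chr5:173328415-173328664 on the minus strand, BNIP3 at chr10:131981924-131982173 on the minus strand, CA9 at chr9:35673678-35673927 on the plus strand and DDIT4 at chr10:72273674-72273923 on the plus strand. For PFKM, the window before its first start of 7 is shown, at chr12:48105103-48105352 on the plus strand. For SLC16A3, which had 5 windows, only the 30 bases around a pair of cores in the second are shown, at chr17:82228967-82228996 on the plus strand. Some of its other windows held no core.
ANGPTL4: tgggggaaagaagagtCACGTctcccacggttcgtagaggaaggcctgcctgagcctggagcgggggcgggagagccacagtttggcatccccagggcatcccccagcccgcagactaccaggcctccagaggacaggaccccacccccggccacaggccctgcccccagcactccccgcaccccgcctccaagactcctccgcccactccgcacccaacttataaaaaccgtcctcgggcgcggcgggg
STC2: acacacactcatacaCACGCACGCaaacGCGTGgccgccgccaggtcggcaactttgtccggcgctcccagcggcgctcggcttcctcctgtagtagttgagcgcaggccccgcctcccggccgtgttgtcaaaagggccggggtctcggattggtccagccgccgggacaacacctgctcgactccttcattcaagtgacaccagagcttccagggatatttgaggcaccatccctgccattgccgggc
BNIP3: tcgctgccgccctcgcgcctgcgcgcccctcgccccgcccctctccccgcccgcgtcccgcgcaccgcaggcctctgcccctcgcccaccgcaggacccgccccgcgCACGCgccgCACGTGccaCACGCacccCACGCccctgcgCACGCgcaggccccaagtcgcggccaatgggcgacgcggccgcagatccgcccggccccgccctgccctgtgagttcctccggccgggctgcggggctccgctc
CA9: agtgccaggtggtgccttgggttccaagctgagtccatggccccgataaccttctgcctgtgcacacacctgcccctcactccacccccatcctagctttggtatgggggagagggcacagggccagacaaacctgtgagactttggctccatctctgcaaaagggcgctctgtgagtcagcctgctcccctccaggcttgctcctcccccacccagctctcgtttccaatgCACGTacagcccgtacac
DDIT4: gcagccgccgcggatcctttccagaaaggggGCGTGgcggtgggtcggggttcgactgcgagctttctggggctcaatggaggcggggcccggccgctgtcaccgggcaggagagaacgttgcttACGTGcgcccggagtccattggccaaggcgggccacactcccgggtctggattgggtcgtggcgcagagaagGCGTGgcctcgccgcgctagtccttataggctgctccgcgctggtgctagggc
SLC16A3: ggcggtgACGTGcgcgggggACGTGccgcg
PFKM: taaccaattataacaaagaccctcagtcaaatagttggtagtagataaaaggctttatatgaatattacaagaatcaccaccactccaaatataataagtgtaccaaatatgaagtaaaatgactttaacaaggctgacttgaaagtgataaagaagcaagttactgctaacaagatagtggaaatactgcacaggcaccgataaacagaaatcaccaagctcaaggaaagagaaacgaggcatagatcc

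The BNIP3 window held the most cores of those shown, with 2 ACGTG matches that form a single CACGTG and 4 GCGTG matches on the opposite strand. CA9 had a single core, on the opposite strand, whose first printed base was at -18 relative to the start, and ANGPTL4 a single core at -234. STC2 held 3 GCGTG and no ACGTG, and DDIT4 held 1 ACGTG and 2 GCGTG. Of the 7 PFKM windows, 1 held a core (ACGTG), and it was not the one shown.

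To ask how knockdown of RND3 affected these genes, they were first compared between treatments at 24 h. Of the 39 genes, 11 fell and none rose (limma, adjusted p below 0.05 over 28762 probes). The 11 were the glucose transporter SLC2A1, the glycolytic enzymes HK2, PFKM and ENO2, the lactate exporter SLC16A3, and 6 genes of the hypoxia response (BNIP3, NDRG1, ANKRD37, DDIT4, ANGPTL4 and STC2). They made up 28.2% of the genes, against 8.31% of all 14797 genes tested that fell, while 6.71% of all genes rose and 15.0% passed in either direction. At an unadjusted p below 0.05, 17 of the 39 genes were lower and 0 higher, against 4895 of all 14797 genes in either direction. SAM, the test that the methods name, called 10, all lower. The median difference over the 39 genes was -0.13 on the log2 scale, against 0.04 over all genes tested. By branch, 5 of 23 glycolysis and lactate genes fell (median -0.12), as did 6 of 16 hypoxia-response genes (median -0.30).

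**Figure D1:**
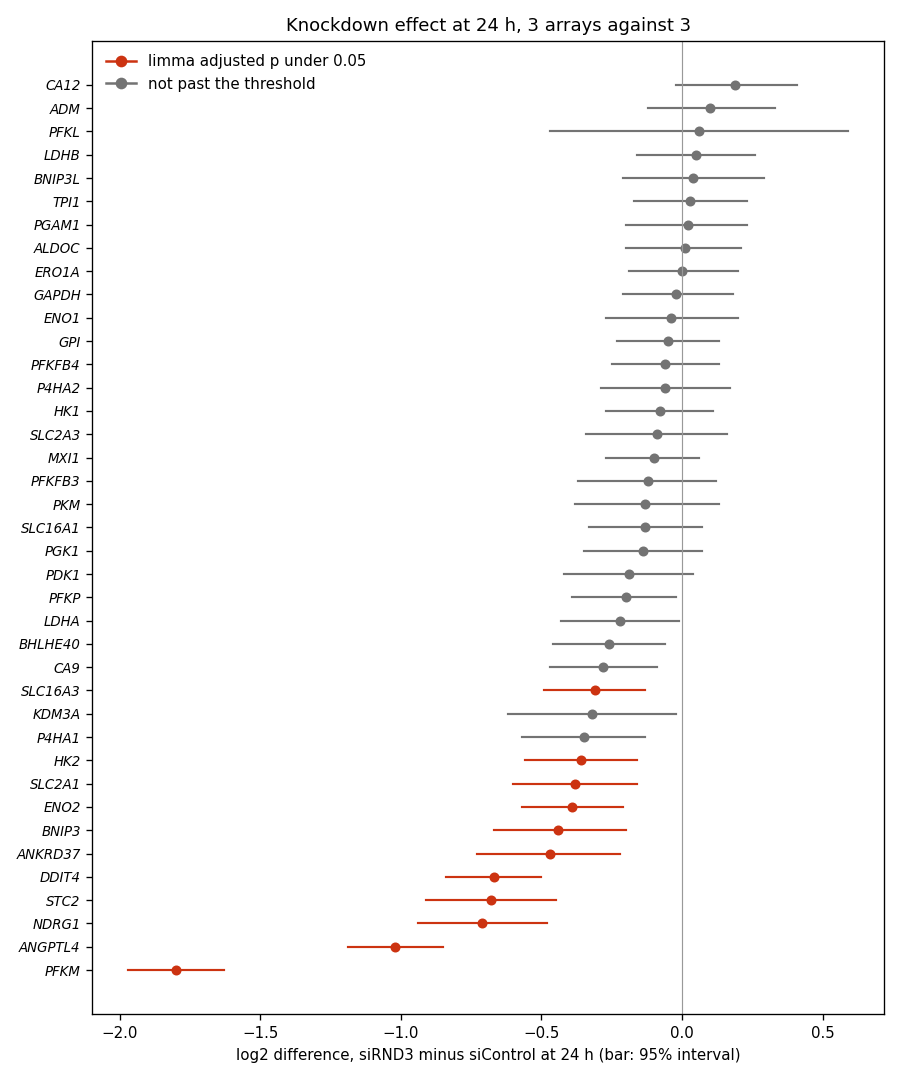
Difference between siRND3 and siControl cells at 24 h for each of the 39 genes, in log2 units, with 95% intervals from limma (3 arrays against 3). PFKM stands apart at -1.80 and ANGPTL4 follows at -1.02, and the 11 genes past the threshold, in red, all lie below 0.

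Glucose uptake was represented by SLC2A1 and SLC2A3, the facilitative transporters GLUT1 and GLUT3. SLC2A1 had log2 values of 11.28, 11.13 and 11.06 in siControl cells and of 10.88, 10.7 and 10.74 in siRND3 cells. The groups did not overlap, and SLC2A1 fell by 0.38 (SE 0.09, adjusted p 0.0452), to 76.8% of the siControl level. SLC2A3 differed by -0.09 (95% interval -0.34 to 0.16), and its arrays overlapped.

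Among enzymes of the hexose phase, counted here together with the triose phosphate isomerase TPI1, 2 of 8 fell. They were single isoforms of families with other measured members. HK2, the inducible hexokinase of tumours, measured 12.71, 12.65 and 12.74 in siControl and 12.25, 12.32 and 12.46 in siRND3 cells. It fell by 0.36 (SE 0.08, adjusted p 0.0386), whereas HK1, the more widely expressed hexokinase, differed by -0.08 (95% interval -0.27 to 0.11). A second and much dimmer HK2 probe differed by -0.03, and with the mean of both probes HK2 differed by -0.19 and was no longer past the threshold.

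Phosphofructokinase, which commits glucose to glycolysis, has muscle, platelet and liver subunits encoded by PFKM, PFKP and PFKL. PFKM stood at 12.83, 12.69 and 12.75 in siControl cells and at 10.98, 10.93 and 10.94 in siRND3 cells. The gap between the groups was many times the spread within either, and PFKM fell by 1.80 (SE 0.07, adjusted p 0.000147), to 28.7% of the siControl level. This was the largest difference among the 39 genes at 24 h. PFKP gave 14.50, 14.44 and 14.49 in siControl and 14.17, 14.33 and 14.32 in siRND3 cells. Its groups did not overlap, yet the difference of -0.20 did not pass (adjusted p 0.147). PFKL varied most within both groups, with an SD of 0.26 in siControl and 0.38 in siRND3 cells, and differed by 0.06 (95% interval -0.47 to 0.59). GPI, ALDOC and TPI1, which interconvert the sugar phosphates, differed by -0.05, 0.01 and 0.03. The kinases PFKFB3 and PFKFB4, which set the level of the phosphofructokinase activator fructose-2,6-bisphosphate, differed by -0.12 and -0.06, and neither passed.

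In the triose phase, counted without TPI1, 1 of 6 genes fell. ENO2, the neuronal enolase, gave 11.88, 11.71 and 11.79 in siControl and 11.36, 11.44 and 11.41 in siRND3 cells. The groups were separated, and ENO2 fell by 0.39 (SE 0.08, adjusted p 0.0240). ENO1, the ubiquitous enolase, differed by -0.04 (95% interval -0.27 to 0.20). PKM, the pyruvate kinase of tumours, measured 15.75, 15.76 and 15.73 in siControl and 15.40, 15.75 and 15.70 in siRND3 cells, so a single siRND3 array was low, and the difference of -0.13 did not pass (adjusted p 0.486). GAPDH, PGK1 and PGAM1 lay between -0.14 and 0.02, and the near-zero values of GAPDH and ENO1 changed sign when arrays were scaled to their 75th percentile. Several of these abundant transcripts have near-identical pseudogene copies, and cross-hybridisation of the probes was not tested.

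At the end of the pathway, SLC16A3, the lactate exporter MCT4, had values of 14.85, 14.73 and 14.77 in siControl and of 14.40, 14.51 and 14.51 in siRND3 cells. It fell by 0.31 (SE 0.07, adjusted p 0.0456), close to the threshold. LDHA, which makes lactate from pyruvate, measured 16.30, 16.06 and 16.14 in siControl and 15.90, 15.98 and 15.97 in siRND3 cells. The groups did not overlap, but the difference of -0.22 did not pass (adjusted p 0.159). PDK1, which blocks pyruvate entry into the mitochondrial cycle, gave 10.19, 10.14 and 9.91 against 9.87, 9.83 and 9.96, with overlap between the groups and a difference of -0.19 (adjusted p 0.252). LDHB and SLC16A1 differed by 0.05 and -0.13.

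Among the secreted factors of the hypoxia response, 2 of 3 fell. ANGPTL4, an inhibitor of lipoprotein lipase with roles in vessel permeability, measured 11.50, 11.58 and 11.62 in siControl and 10.57, 10.55 and 10.49 in siRND3 cells. It fell by 1.02 (SE 0.07, adjusted p 0.000632), to 49.2% of the siControl level. STC2, a secreted glycoprotein hormone, gave 9.82, 9.64 and 9.72 against 8.98, 8.96 and 9.20 and fell by 0.68 (SE 0.10, adjusted p 0.00794). ADM, which encodes the vasodilator adrenomedullin, did not follow, with a difference of 0.10 (95% interval -0.12 to 0.33).

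Of 6 intracellular regulators, 3 fell and all 6 had siRND3 arrays entirely below the siControl arrays. NDRG1, a stress-responsive differentiation gene, stood at 14.52, 14.28 and 14.37 in siControl and at 13.57, 13.70 and 13.76 in siRND3 cells, a fall of 0.71 (SE 0.09, adjusted p 0.00640). DDIT4, which restrains mTORC1 signalling, measured 11.36, 11.28 and 11.30 against 10.60, 10.63 and 10.71 and fell by 0.67 (SE 0.07, adjusted p 0.00284). Their siRND3 levels were 61.1% and 62.9% of siControl. ANKRD37, a small ankyrin repeat gene and HIF target, gave 9.72, 9.51 and 9.61 against 9.27, 8.96 and 9.19, and fell by 0.47 (SE 0.11, adjusted p 0.0382). The histone demethylase gene KDM3A (-0.32), the repressor BHLHE40 (-0.26) and the MYC antagonist MXI1 (-0.10) did not pass, and another MXI1 probe differed by 0.11.

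For the mitophagy receptors, BNIP3 fell and its relative BNIP3L did not pass. BNIP3 had values of 13.56, 13.38 and 13.46 in siControl and of 13.07, 12.88 and 13.13 in siRND3 cells, which gave a fall of 0.44 (SE 0.10, adjusted p 0.0355). BNIP3L differed by 0.04 (95% interval -0.21 to 0.29). The pH-regulating carbonic anhydrases did not pass. CA9 measured 10.08, 9.96 and 9.98 against 9.73, 9.80 and 9.64, without overlap, and differed by -0.28 (adjusted p 0.0682). CA12 differed by 0.19 and was the only one of the 39 genes whose siRND3 arrays all lay above the siControl arrays. Of the genes for collagen hydroxylation and oxidative folding, P4HA1 differed by -0.35 (adjusted p 0.0599), P4HA2 by -0.06 and ERO1A by 0.00.

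**Figure D2:**
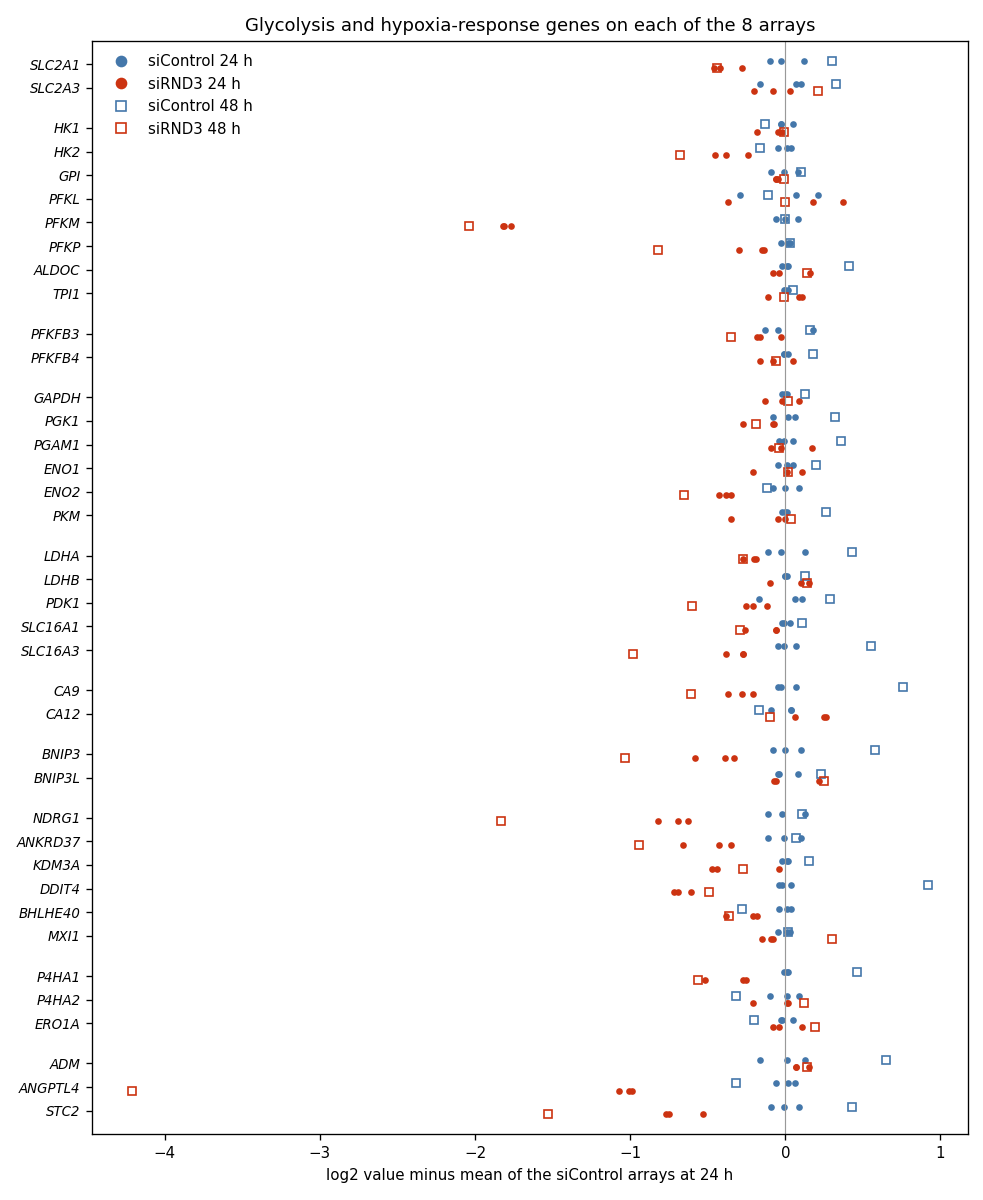
Log2 value of each of the 39 genes on each of the 8 arrays, minus the mean of the 3 siControl arrays at 24 h (filled circles, 24 h arrays, open squares, 48 h arrays, blue siControl, red siRND3), grouped by role from glucose uptake at the top to secreted factors at the bottom. The siRND3 arrays of PFKM, NDRG1, DDIT4, ANGPTL4 and STC2 lie well to the left of their controls at 24 h, and those of ANGPTL4 extend farthest left at 48 h.

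Counted by position alone, 19 of the 39 genes (48.7%) had all 3 siRND3 arrays below all 3 siControl arrays, against 17.5% of 14783 genes with complete values, and 1 (2.56%) had them all above, against 24.1%. The spread within a group was small, with a median SD over the 39 genes of 0.06 in siControl and 0.11 in siRND3 cells. The falls of PFKM, NDRG1, DDIT4, ANGPTL4 and STC2 passed under all 16 alternative settings, leave-one-out fits included. The other 6 were nearer the threshold. In place of 11 genes, 5 passed without any one of the siControl arrays or without siRND3 replicate 2, and 6 and 7 passed without siRND3 replicates 1 and 3.

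At 48 h the same direction was seen over more genes and with larger differences. Of the 39 genes, 16 fell and none rose in the limma model of both times (41.0%, against 12.3% of all genes that fell, 13.2% that rose and 25.5% in either direction). At an unadjusted p below 0.05, 21 were lower and 2 higher, against 5827 of all 14797 genes in either direction. The 16 included all 11 that fell at 24 h and, in addition, PFKP, LDHA, PDK1, CA9 and P4HA1. The median difference was -0.42, against 0.06 over all genes, with 8 of 23 glycolysis and lactate genes falling (median -0.39) and 8 of 16 hypoxia-response genes (median -0.76). There was 1 array per group at 48 h, so the test assumed that these arrays varied like those at 24 h, and no replicate checks them.

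ANGPTL4 had the largest difference, with log2 values of 11.24 in siControl and 7.35 in siRND3 cells at 48 h. It fell by 3.89 (SE 0.12, adjusted p 0.000124), to 6.73% of the siControl level. PFKM followed at 12.75 against 10.71, a fall of 2.04 to 24.3%. STC2 (10.16 against 8.2) fell by 1.96, and NDRG1 (14.50 against 12.56) fell by 1.94. These 4 genes lay between 6.73% and 26.1% of the siControl level.

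In the next tier were BNIP3, with 14.04 in siControl and 12.43 in siRND3 cells, and SLC16A3, with 15.33 against 13.80, which fell by 1.61 and 1.53. DDIT4 (12.24 against 10.83) and CA9 (10.77 against 9.40) fell by 1.41 and 1.37. P4HA1, a catalytic subunit of collagen prolyl 4-hydroxylase, fell by 1.02 and ANKRD37 (9.69 against 8.68) by 1.01. These 6 genes lay between 32.7% and 49.7% of the siControl level.

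Apart from PFKM, the decreases in genes of glucose uptake, glycolysis and pyruvate use were smaller. PDK1 stood at 10.37 in siControl and 9.48 in siRND3 cells and fell by 0.89 (adjusted p 0.0137). PFKP (14.50 against 13.65) fell by 0.86 and LDHA (16.60 against 15.90) by 0.70, and the second PFKP probe gave -0.85. SLC2A1, at 11.46 against 10.72, fell by 0.73. HK2 (12.54 against 12.02) fell by 0.53 and ENO2 (11.67 against 11.14) by 0.52, both near the threshold (adjusted p 0.0469 and 0.0371), and the dim HK2 probe gave 0.17. PKM, at 16.01 against 15.79, differed by -0.22 and did not pass (adjusted p 0.513).

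Isoforms that had not passed at 24 h mostly did not pass at 48 h either. HK1, PFKL, LDHB and BNIP3L differed by 0.12, 0.11, 0.01 and 0.01, and CA12 by 0.07. GAPDH differed by -0.11 and ENO1 by -0.18, while PGK1, with -0.52, lay just outside the threshold (adjusted p 0.0584). The values above 0 were largest in P4HA2 (0.43) and ERO1A (0.39), which work in the secretory path beside P4HA1, and neither passed. For SLC2A3 the brightest probe gave -0.12 and a dimmer probe gave -0.89 (adjusted p 0.0451), so its probes disagreed in size.

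Whether the knockdown effect differed between the times was tested as an interaction. For 6 of the 39 genes the difference between siRND3 and siControl cells was more negative at 48 h than at 24 h, and for none was it more positive (15.4%, against 2.33% and 1.43% of all genes, or 3.76% in either direction). At an unadjusted p below 0.05 these counts were 13 and 2, against 3236 of all 14797 genes in either direction. The 6 were SLC16A3, CA9, BNIP3, NDRG1, ANGPTL4 and STC2, so 5 belonged to the hypoxia response and 1 to lactate export. ANGPTL4 changed most, by -2.87 (SE 0.14, adjusted p 0.00417). The other 5 changed by between -1.28 for STC2 and -1.09 for CA9, with adjusted p between 0.0238 and 0.0370.

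Other genes gave smaller or less certain values. DDIT4 changed by -0.74 and lay just outside the threshold (adjusted p 0.0525), and PDK1, P4HA1 and PFKP changed by -0.70, -0.67 and -0.65 without passing. PFKM, which had the largest difference at 24 h, changed by -0.24 (95% interval -0.58 to 0.10, adjusted p 0.449). When any siControl array at 24 h was left out, ANGPTL4 alone of the 39 genes passed, and 2, 3 and 4 genes passed without siRND3 replicates 1, 2 and 3.

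**Figure D3:**
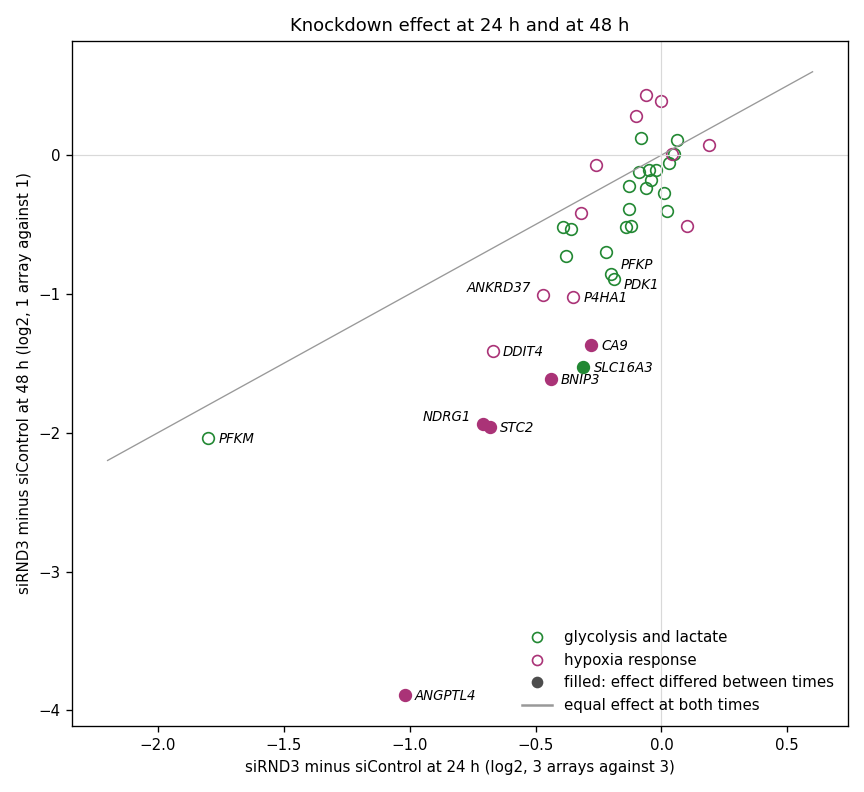
Difference between siRND3 and siControl cells at 24 h (x axis) and at 48 h (y axis), in log2 units, for the 39 genes. Points under the grey line had a more negative difference at 48 h, and the 6 filled points (ANGPTL4, STC2, NDRG1, BNIP3, SLC16A3 and CA9) passed the test of that change, while PFKM lies near the line.

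The change over time was then followed within each treatment, using the same 24 h arrays as above, so these values are not independent of the interaction. In siControl cells 3 of the 39 genes rose from 24 h to 48 h and none fell (7.69%, against 1.13% of all genes that rose, 3.60% that fell and 4.73% in either direction). At an unadjusted p below 0.05, 11 were higher and 2 lower, against 3477 of all 14797 genes in either direction. The 3 that rose past the adjusted threshold were DDIT4, by 0.92 (adjusted p 0.0141), CA9, by 0.76 (adjusted p 0.0238), and SLC16A3, by 0.55 (adjusted p 0.0463). ADM, with 0.66, and BNIP3, with 0.58, did not pass (adjusted p 0.0513 and 0.0770). The median over the 39 genes was 0.15, against -0.01 over all genes.

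In siRND3 cells 6 genes fell over the same interval and 1 rose (15.4% and 2.56%, against 8.24% and 3.22% of all genes, or 11.5% in either direction). ANGPTL4 fell by 3.19 (adjusted p 0.000327), NDRG1 by 1.11, STC2 by 0.85, SLC16A3 by 0.67, PFKP by 0.63 and BNIP3 by 0.60. MXI1 rose by 0.41, at the edge of the threshold (adjusted p 0.0498). The median over the 39 genes was -0.05, against 0.03 over all genes.

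For the 6 genes with a changed effect, the changes over time in siControl and in siRND3 cells were 0.55 and -0.67 for SLC16A3, 0.58 and -0.60 for BNIP3, 0.43 and -0.85 for STC2, and 0.76 and -0.32 for CA9. NDRG1 changed by 0.11 and -1.11, and ANGPTL4 by -0.32 and -3.19. Differences between these genes in their course were not tested. The calls in siControl cells rested on all 3 of its 24 h arrays, since none of the 39 genes passed when any of them was left out. Without siControl replicate 3, 4 in place of 7 genes passed in siRND3 cells.

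**Figure D4:**
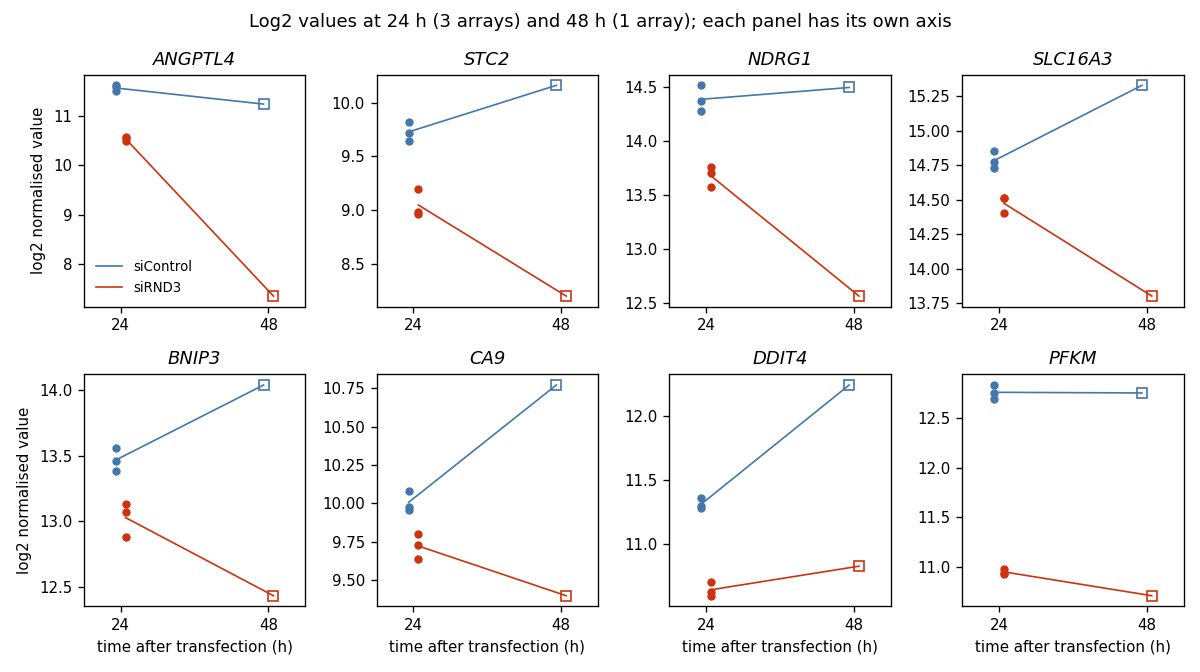
Log2 values of 8 genes at 24 h (3 arrays per group, circles) and 48 h (1 array per group, squares) after transfection, with lines from the 24 h mean to the 48 h array and a separate vertical axis for each gene. DDIT4, CA9, SLC16A3 and BNIP3 lie higher at 48 h than at 24 h in siControl cells, ANGPTL4 drops to 7.35 in siRND3 cells at 48 h, and PFKM differs between the treatments by -1.80 at 24 h and -2.04 at 48 h.

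Further genes of both pathways were counted for context. Of 57 other genes of glycolysis and linked sugar metabolism, 52 were tested, and at 24 h 9 fell and 2 rose (17.3% and 3.85%, against 8.31% and 6.71% of all genes, median -0.02). The lactate and pyruvate transporter SLC16A7 (MCT2) fell by 2.09, although with normexp background correction or in the authors' log2 values the fall was as small as 0.91. GPD1L, a glycerol-3-phosphate dehydrogenase relative, fell by 1.34, and PGM1, which links glycogen and glycolysis, by 1.32. The pentose phosphate enzyme gene RPIA rose by 1.00 and the pyruvate dehydrogenase kinase gene PDK2 by 0.38. The rise of PDK2 did not pass under 6 of the 16 alternative settings. At 48 h 12 of these genes fell and 4 rose (23.1% and 7.69%, against 12.3% and 13.2% of all genes, median -0.10).

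Of 59 other hypoxia-response genes, 54 were tested, and at 24 h 16 fell and 2 rose (29.6% and 3.70%, against 8.31% and 6.71% of all genes, median -0.16). Those with the largest falls were SLC7A11 (-1.50), a cystine transporter, DUSP1 (-0.78), a MAP kinase phosphatase, and MAFF (-0.70), a small MAF transcription factor, all of which also respond to stimuli other than hypoxia. PPP1R3B, a glycogen-targeting phosphatase subunit, rose by 0.60, and VHL, the ligase that removes HIF subunits, rose by 0.35 (limma adjusted p 0.0329). The rise of VHL did not pass under 7 of the 16 alternative settings. At 48 h 22 fell and 7 rose (40.7% and 13.0%, against 12.3% and 13.2% of all genes, median -0.46).

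Markers of cell identity moved in the same comparisons. Among the line markers CD44 fell and NES rose in siRND3 cells at 24 h (by 0.56 and by 0.41), and the neuronal genes SNAP25 and SYT1 fell by 0.42 and by 0.49, while RBFOX3, which defines neurons, was not above background. At 48 h the differences were -2.11 for CD44, 2.10 for NES, -1.10 for SNAP25 and -0.72 for SYT1, all past the threshold and, for CD44 and NES, as large as those of PFKM and STC2. NES stood at 7.53 on the siControl array at 48 h, against 9.57 to 9.61 at 24 h, a fall over time of 2.07 in siControl cells. The endothelial gene PECAM1 fell by 0.99 at 24 h, and at 48 h it measured 6.69 in siControl cells and was not well above background in siRND3 cells. The other endothelial markers, CDH5 and VWF, differed by 0.31 and -0.06 at 24 h and did not pass. Of the 4 leukocyte markers none passed at either time. The part of these shifts in the results above was not tested.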

How the data were processed

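RNA from U87 cells was hybridised to 8 Agilent arrays with 1 colour. The deposited scanner files hold spot intensity from Agilent Feature Extraction 10.7.3.1, background-corrected within each array per the file headers. The authors also deposited quantile-normalised log2 values, used as an alternative, whose rank order within each array was that of the spot median signal. Control spots (4259 of 62976) and outlier spots were removed, and the processed intensity was put on a log2 scale and quantile-normalised across all 8 arrays, the method the study names. Quantile normalisation gives every array the same distribution, so a shift shared by most genes would not be seen. Spots were averaged to 42405 probes, of which 25422 matched a RefSeq gene by accession. Probes marked well above background on all 3 arrays of a 24 h group were tested (28762), and the number of arrays limits the precision.

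Groups came from the labels. The 6 arrays at 24 h were compared with limma 3.58.1 in R 4.3.3, and both times with a 4-group limma model, and p-values were adjusted by Benjamini-Hochberg over every tested probe. The scripts were tested on simulated data. The genes, roles, lists and motifs were chosen with earlier results of these data known. All 40 genes were accounted for. Array values were given for genes that passed at 24 h or in the interaction and for HK2, PFKP, PKM, LDHA, SLC2A1 and PDK1, and of each further list at most 3 called genes in each direction were named. The alternatives were other scalings, backgrounds and filters, averaging the probes of a gene, SAM at a false discovery rate of 5%, the replicate number as a block, and leaving out each 24 h array.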

Additional observations from a re-analysis of the deposited data

Results flagged for a closer look

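A test of the difference between the effects at 48 h and 24 h passed for 9 of the pathway genes named in the Results and for 2 markers of the line. The 9 all had a more negative effect at 48 h. Among the 39 genes these were ANGPTL4 (-2.87, limma adjusted p 0.00417), STC2 (-1.28, 0.0326), NDRG1 (-1.23, 0.0344), SLC16A3 (-1.22, 0.0238), BNIP3 (-1.18, 0.0370) and CA9 (-1.09, 0.0306), where the first value is the log2 change of the effect and the second the adjusted p. In the further lists they were PGM1 (-0.99, 0.0306), MAFF (-0.90, 0.0383) and GPD1L (-0.76, 0.0423). Genes of these lists not named in the Results passed as well. In all, 4 of 52 glycolysis and sugar genes were more negative and 0 more positive, and 6 and 1 of 54 hypoxia-response genes. Over all genes the shares more negative and more positive were 2.33% and 1.43%. GFPT2 (-1.91) and VEGFA (-1.64) had the most negative changes of each list, and HMOX1 (1.27) was the gene with a positive one. HMOX1 stood at 14.13 on the siControl array at 48 h, against 15.61 to 15.78 at 24 h. In siRND3 cells it stood at 15.44, against 15.68 to 15.76. The markers were CD44 (-1.55, 0.0185) and NES (1.68, 0.0228), of which NES changed in the positive direction. PECAM1, an endothelial gene, passed as well, but in siRND3 cells at 48 h its signal was not well above background, so no size is given. The effect at 48 h came from 1 array per group.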

How the results depend on the processing

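At 24 h the 11 falls became 9 with scaling to the 75th percentile, 15 with normexp, 12 in the authors' log2 values, 10 with the probes of a gene averaged or with SAM, and 6 with no filter on dim probes, and 5 to 7 passed when an array was left out. The 16 falls at 48 h ranged from 12 to 20 over the alternatives, and from 14 to 17 with an array left out. The 6 changed effects became 10 with normexp and ranged from 1 to 4 with an array left out. In siControl cells the 3 rises over time became 6 with normexp, 5 in the authors' log2 values and 0 to 2 with an array left out, and in siRND3 cells the 7 changes became 4 to 6.

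The replicate numbers did not pair the arrays, since deviations of same-numbered arrays correlated at 0.00, -0.01 and 0.13. With the replicate number as a block, 6 genes passed at 24 h and 12 at 48 h, and 0 passed in the interaction or over time in either treatment. The cause of these losses was not tested.

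Differences near 0 at 24 h changed sign for some genes, none of which had passed. With scaling to the 75th percentile the values were 0.01 for GPI, 0.07 for GAPDH, 0.01 for ENO1 and 0.00 for P4HA2. ALDOC gave -0.01 with normexp and -0.01 in the authors' log2 values. With an array left out the values ranged from -0.09 to 0.28 for PFKL, -0.06 to 0.05 for ALDOC, -0.01 to 0.10 for TPI1, -0.07 to 0.04 for GAPDH, -0.06 to 0.07 for PGAM1, -0.11 to 0.05 for ENO1, -0.06 to 0.09 for BNIP3L, -0.11 to 0.02 for P4HA2 and -0.05 to 0.04 for ERO1A.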
